A study of Mus musculus with 2 samples.

Results

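Mitochondrial ribosomal proteins are the nuclear-encoded proteins of the ribosome inside mitochondria. They were taken as the probe sets that the platform annotation pairs with a single gene symbol starting with Mrpl (large subunit) or Mrps (small subunit) and a number. The brightest probe set stood for each gene. The rule gave 74 genes of 12393 named on the array, read by 127 probe sets. The reference set, chosen in the same way, was 39 genes of the cytosolic ribosome. Total RNA came from uterine epithelium of mice on day 4 of pregnancy, enriched by trypsin digestion and by squeezing the tissue. The 2 groups were Stat3 knockout and control. Both samples carry a title with the words Stat3 flox control, where flox means an allele flanked by recombinase sites, and the genotype label tells them apart. The labels do not say which promoter drove the deletion or in which cells. Each group was 1 array of the Affymetrix Mouse Genome 430A 2.0 type, hybridised with pooled RNA (n = 3 per sample in the design text).

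The mitochondrial ribosome translates the few messages of mitochondrial DNA, all of them for core membrane subunits of the respiratory chain and ATP synthase. Its ribosomal RNAs come from mitochondrial DNA. Every protein is encoded in the nucleus, made on cytosolic ribosomes and imported. Part of these proteins have relatives in bacterial ribosomes, and part are found only in mitochondria. In the uterine epithelium of early pregnancy, Stat3 is activated by leukaemia inhibitory factor and is needed for the embryo to implant.

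Values are MAS5 signals, the brightness of a probe set on a linear scale, and each log2 ratio is Stat3 knockout over control. With 1 array per group there is no replicate check, no test and no p-value, and differences are described by size. Counts were made at 2-fold and at 1.5-fold (0.58 on the log2 scale). A gene was measured if its signal reached 14.0, the 40th percentile of all signals, on at least 1 array. All 74 mitochondrial ribosomal protein genes reached it on both arrays. The only error on a ratio that these arrays give is the disagreement between probe sets of a gene, with an SD of 0.22 on the log2 scale per probe set among the mitochondrial ribosomal protein genes (26 genes) and of 0.35 over all genes (3237 genes). It covers neither animals nor arrays.

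Stat3 itself had signals of 186 in the knockout and 582 in the control in its brightest probe set, or 32.0% of the control signal. The epithelial label was checked against markers: all 12 epithelial markers were measured, with 4289 and 4220 for Krt8, 2708 and 2275 for Cdh1 and 2335 and 3003 for Epcam in knockout and control. Of the 12 epithelial markers 8 were above 0 and 4 below, and their summed signal was 27898 in the knockout and 25937 in the control. Past 2-fold were Muc1 (99.0 in the knockout and 418 in the control), Krt7 (460.3 and 1592) and, upward, Cldn4 (776 and 371). Of 7 endothelial markers 5 were under the floor on both arrays, as were 4 of 6 smooth muscle markers, Myh11 and Des among them, and 5 of 13 leukocyte markers, Cd3e, Itgam and Ncr1 among them. Of 12 stromal markers 10 were measured, with a summed signal of 3647 in the knockout and 2724 in the control. Of these 10, 8 were above 0 and 2 below, with Fn1 past 2-fold downward (56.7 in the knockout and 120 in the control). The brightest stromal markers were higher in the knockout: Dcn (1753 in the knockout and 1235 in the control), Col3a1 (721 and 570), Vim (432 and 300) and Col1a2 (434 and 261). The summed signal of the 8 measured leukocyte markers was 554 in the knockout and 644 in the control. Of these 8, 4 were above 0, Csf1r (144 and 85.8) among them, and 4 below, Laptm5 (118 and 227) among them. Their part in the results was not tested. In pooled tissue RNA, fewer cells of a type and less RNA per cell cannot be told apart.

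Mitochondrial ribosomal protein genes were lower as a group in the knockout, by a small amount and in a narrower band than all genes. Of the 74 genes, 66 had a log2 ratio below 0, against 46.6% of all 8304 genes measured. Their median log2 ratio was -0.47, or 1.39-fold lower, with quartiles of -0.72 and -0.18, against 0.05 over all genes. The ratios ran from -1.52 to 0.35. Their SD across genes was 0.38, against 0.88 over all genes and 0.42 over the 39 cytosolic ribosomal protein genes. The cytosolic quartiles, -0.17 and 0.03, lay closer together than those of the members.

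Few members passed 2-fold. In the knockout 4 genes (5.41%) were lower by 2-fold or more, a smaller share than the 9.92% of all genes, and 0 were higher by 2-fold or more, against 7.37% of all genes. At 1.5-fold, 29 genes (39.2%) were lower against 18.6% of all genes, and 0 were higher against 19.4%. With the floor value added to both signals, 4 members (5.41%) were lower by 2-fold or more, against 5.40% of all genes. That 5.40% is over all 12393 genes, those under the floor included. It is thus not on the same base as the 9.92%, which is over the 8304 genes measured. The 1.5-fold limit ran between Mrps28, with 211 in the knockout and 321 in the control (1.52-fold), and Mrpl1, with 49.4 and 74.1 (log2 ratio -0.58), which fell just short of it. Among the 5167 other genes whose mean signal fell in the range of the members, 45.5% had a ratio below 0, 8.34% were lower by 2-fold or more, 6.74% were higher by 2-fold or more, 17.2% were lower by 1.5-fold or more, 18.4% were higher by 1.5-fold or more, and the median was 0.06.

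**Figure D1:**
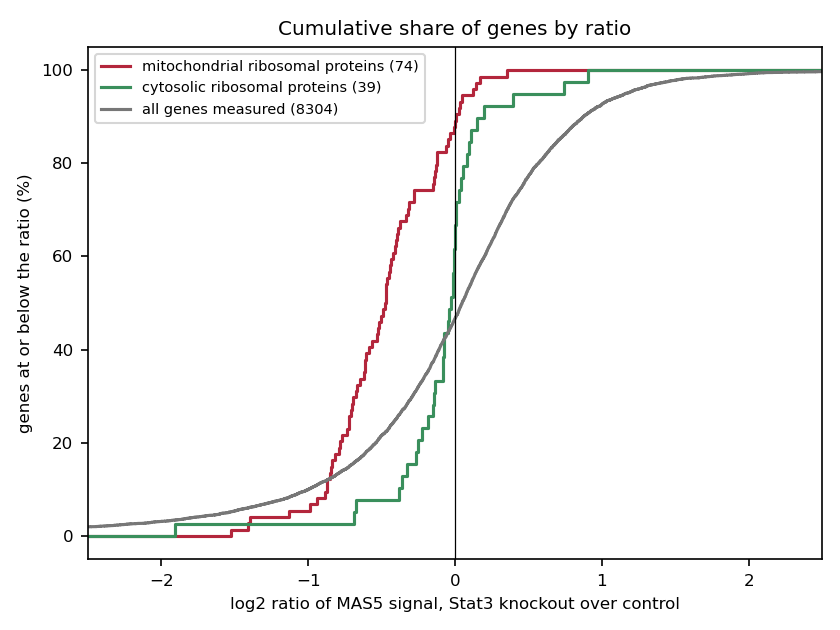
Cumulative share of genes (vertical axis, in percent) at or below each log2 ratio of Stat3 knockout over control (horizontal axis), for mitochondrial ribosomal proteins, cytosolic ribosomal proteins and all genes measured. The curve of the 74 mitochondrial genes lies left of both others around its median of -0.47 and ends at 0.35. At the low end it runs at or below the curve of all genes.

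The 4 genes past 2-fold were Mrps22, Mrps25, Mrpl33 and Mrpl12. Mrps22 (gene ID 64655), a small subunit protein with no bacterial relative whose mutations in humans cause mitochondrial disease, had a signal of 94.7 in the knockout and 272 in the control, or 2.88-fold lower (log2 ratio -1.52). Mrps25 (gene ID 64658), also a small subunit protein without a bacterial relative, had 108 in the knockout and 286 in the control, or 2.65-fold lower. Mrpl33 (gene ID 66845), the counterpart of the bacterial large subunit protein L33, had 225 in the knockout and 591 in the control, or 2.63-fold lower. Mrpl12 (gene ID 56282), which forms the flexible stalk that recruits translation factors, had 330 in the knockout and 724 in the control, or 2.19-fold lower. Mrpl20 fell just short of the limit, with 177 in the knockout and 353 in the control (1.99-fold). Only Mrps25 of these 5 had a second measured probe set, at 31.0 in the knockout and 52.4 in the control, a log2 ratio of -0.76 against -1.41, so its decrease was past 2-fold in 1 of its 2 measured probe sets.

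Upstream sequences are shown for these 4 genes and for Mrpl49 and Mrpl27, the genes with the highest ratios (0.15 and 0.17) among the 65 members with an entry in RefSeq's promoter table (GRCm38.p6), so that promoters of both ends of the range can be read side by side. The ratios of Mrpl49 and Mrpl27 were smaller than the probe set SD of 0.22, and the next Mrpl49 probe set gave -0.20. Each run is the 250 bases before the annotated start, 5′ to 3′ in the direction of the gene, in lower case. Capitals mark the motif letters searched on both strands: GCATGCG, the middle of the NRF1 motif, and CCGGAAG for the ETS factor GABPA, both known regulators of nuclear genes for mitochondria, CACGTG (the E-box bound by MYC and others), AAGATGG for YY1, GGGCGG for SP1, and CCAAT. No motif overlaps another in these runs. Positions are Mrps22 chr9:98601680-98601929 (minus strand), Mrps25 chr6:92184024-92184273 (minus strand), Mrpl33 chr5:31613701-31613950 (plus strand), Mrpl12 chr11:120484387-120484636 (plus strand), Mrpl49 chr19:6057756-6058005 (minus strand) and Mrpl27 chr11:94653541-94653790 (plus strand).
Mrps22: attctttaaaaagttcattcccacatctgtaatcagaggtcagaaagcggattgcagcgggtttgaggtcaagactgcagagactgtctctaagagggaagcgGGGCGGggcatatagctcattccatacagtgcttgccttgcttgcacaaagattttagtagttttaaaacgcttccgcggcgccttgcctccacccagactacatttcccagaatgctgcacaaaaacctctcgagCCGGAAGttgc
Mrps25: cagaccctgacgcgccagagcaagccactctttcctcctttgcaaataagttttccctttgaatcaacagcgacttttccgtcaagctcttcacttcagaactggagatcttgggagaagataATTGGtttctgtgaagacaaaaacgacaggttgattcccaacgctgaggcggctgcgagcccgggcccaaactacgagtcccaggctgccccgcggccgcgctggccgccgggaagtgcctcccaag
Mrpl33: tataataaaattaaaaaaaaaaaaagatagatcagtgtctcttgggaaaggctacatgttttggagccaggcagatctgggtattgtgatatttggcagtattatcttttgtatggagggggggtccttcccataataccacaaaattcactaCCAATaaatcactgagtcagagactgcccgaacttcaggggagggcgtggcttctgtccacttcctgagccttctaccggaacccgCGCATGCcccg
Mrpl12: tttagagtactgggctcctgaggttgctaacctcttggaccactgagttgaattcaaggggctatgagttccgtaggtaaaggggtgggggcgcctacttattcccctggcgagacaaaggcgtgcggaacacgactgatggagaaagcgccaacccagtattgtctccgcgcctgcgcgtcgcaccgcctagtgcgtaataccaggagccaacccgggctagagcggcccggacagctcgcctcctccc
Mrpl49: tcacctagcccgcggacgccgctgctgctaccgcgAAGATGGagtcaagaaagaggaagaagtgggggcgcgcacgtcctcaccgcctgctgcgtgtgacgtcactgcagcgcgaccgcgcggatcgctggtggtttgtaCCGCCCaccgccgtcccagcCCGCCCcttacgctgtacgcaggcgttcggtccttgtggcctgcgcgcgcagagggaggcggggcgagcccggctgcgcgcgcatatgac
Mrpl27: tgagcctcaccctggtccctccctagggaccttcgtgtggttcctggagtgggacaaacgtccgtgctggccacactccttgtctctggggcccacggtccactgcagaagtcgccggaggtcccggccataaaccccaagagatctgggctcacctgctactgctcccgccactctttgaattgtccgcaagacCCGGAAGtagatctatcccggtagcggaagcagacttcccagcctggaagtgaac

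Mrps22 and Mrpl27, from opposite ends of the range, both held the GABPA letters: Mrps22 11 bases and Mrpl27 55 bases before the start. Mrpl33 held the NRF1 letters 11 bases before its start. Mrpl12 held none of the searched letters. Over the 65 members, 15 promoters (23.1%) held the GABPA letters, against 15.0% of 6786 measured genes and 7.05% of all 27025 promoters of the same length. The NRF1 letters stood in 8 of 65 (12.3%), against 5.91% of measured genes and 3.07% of all promoters. The 26 members that were lower by 1.5-fold or more held the GABPA letters in 8 promoters and the NRF1 letters in 4, and the 39 other members held them in 7 and 4. The E-box stood in 5 of 65 (7.69%), against 8.68% of measured genes and 6.05% of all promoters. SP1 letters stood in 50.8% of members, 61.7% of measured genes and 32.9% of all promoters. YY1 letters stood in 9.23% of members, 4.39% of measured genes and 4.53% of all promoters, and CCAAT in 35.4%, 36.4% and 34.5%. A match describes letters and is not a binding site, and a missing match says nothing of the factor.

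**Figure D2:**
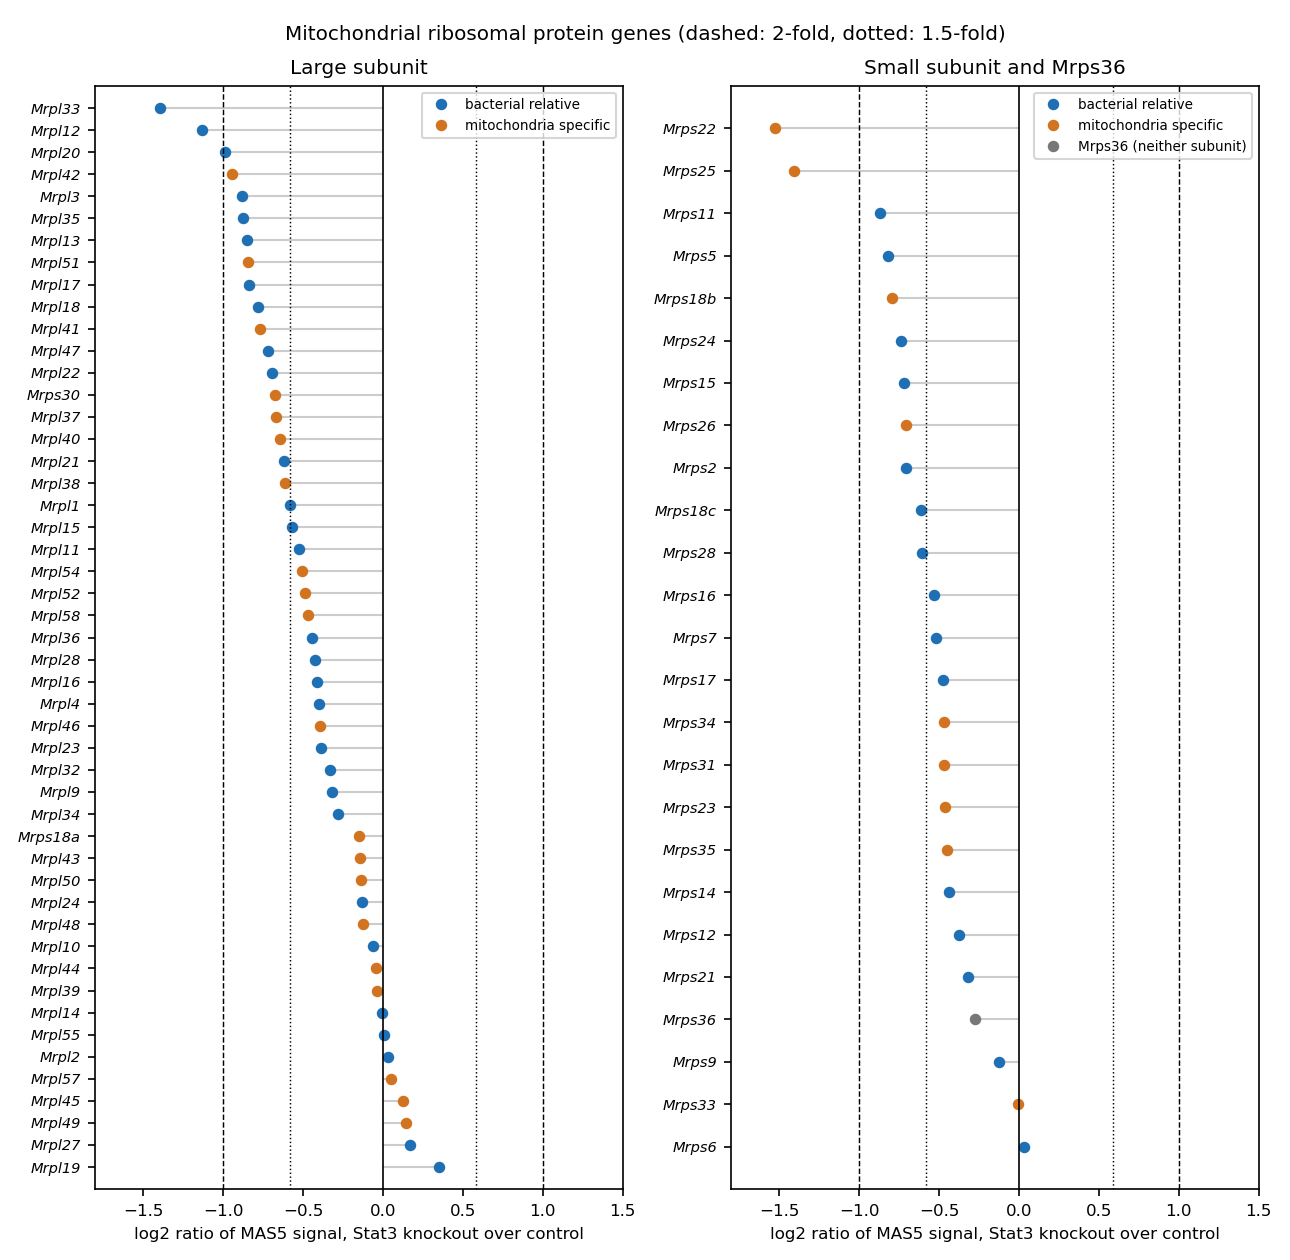
Log2 ratio of Stat3 knockout over control for each of the 74 genes, as 1 point per gene, split by subunit and coloured by whether the protein has a bacterial relative. Of 49 large subunit genes 42 lie left of 0, and of 24 small subunit genes 23 do; only Mrps22, Mrps25, Mrpl33 and Mrpl12 lie left of the 2-fold line.

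Both subunits had lower medians in the knockout. The 49 genes of the large subunit, which holds the peptidyl transferase centre, had a median log2 ratio of -0.44, with 42 below 0 and 18 lower by 1.5-fold or more. Mrps30 and Mrps18a, named for the small subunit, are counted here because structures place both proteins in the large subunit. The 24 genes of the small subunit, which reads the message, had a median of -0.53, with 23 below 0 and 11 lower by 1.5-fold or more. The small subunit's median minus the large subunit's was -0.082 on the log2 scale. Mrps36, now regarded as a part of the 2-oxoglutarate dehydrogenase complex and not of the ribosome, had 222 in the knockout and 269 in the control (log2 ratio -0.28).

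The proteins were also grouped by origin. The 44 genes with a bacterial relative had a median of -0.52, with 39 below 0. The 29 genes found only in mitochondria had a median of -0.47, with 26 below 0. Each of these classes contributed 2 of the 4 genes past 2-fold.

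Mrpl3, whose bacterial counterpart reaches close to the peptidyl transferase centre, had 134 in the knockout and 247 in the control (log2 ratio -0.88), and a second probe set gave -0.91. Mrpl2, another protein near that centre, had 279 in the knockout and 272 in the control. Mrpl27, whose bacterial counterpart touches the transfer RNA there, had 742 in the knockout and 660 in the control. Mrpl2 and Mrpl27 were thus as high in the knockout as in the control, within the probe set SD, while Mrpl3 was lower. Mrpl4 and Mrpl16 had ratios of -0.40 and -0.41. Mrpl14, on the face toward the small subunit where an assembly factor binds, had 201 on both arrays, and Mrpl19, the counterpart of a bridge protein, had the highest ratio, with 427 in the knockout and 334 in the control (0.35). The Mrpl19 probe set carries a suffix for transcripts in common, and the gene's other measured probe set gave 0.07.

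The stalk is the part of the large subunit that recruits translation factors. Mrpl10, its base, had 206 in the knockout and 215 in the control (log2 ratio -0.06), whereas Mrpl12, which binds to Mrpl10, had the ratio of -1.13 given above. Mrpl11, at the foot of the stalk, had 216 in the knockout and 310 in the control (-0.52), and Mrpl54, next to the stalk, had 121 in the knockout and 172 in the control (-0.51). Mrpl10 and Mrpl12 thus differed by more than the probe set SD, while Mrpl11 and Mrpl54 were nearly equal.

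Of 6 proteins at the tunnel through which the new chain leaves, 5 were lower in the knockout and 3 lower by 1.5-fold or more. Mrpl17 had 502 in the knockout and 897 in the control (log2 ratio -0.84), Mrpl47 had 114 and 188 (-0.72), and Mrpl22 had 271 and 438 (-0.70). Mrpl23 had 250.2 in the knockout and 328 in the control (-0.39), and Mrpl24 had 744 and 813 (-0.13). The exception was Mrpl45, which holds the ribosome to the inner membrane, with 261 in the knockout and 240 in the control (0.13). Its difference was less than the probe set SD.

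In the central protuberance, the crest of the large subunit, the ratios ran from -0.78 for Mrpl18 to 0.17 for Mrpl27. Mrpl18 had 331 in the knockout and 569 in the control, Mrpl40 had 248 and 388 (log2 ratio -0.65), and Mrpl38 had 81.9 and 125 (-0.62). Mrpl46 had 212 in the knockout and 279 in the control (-0.40). Mrpl48 had 182 in the knockout and 198 in the control (-0.12), and its second probe set gave 0.14. Mrpl58, a peptidyl-tRNA hydrolase built into the ribosome, had 293 in the knockout and 406 in the control (-0.47).

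Other large subunit genes among the lowest ratios were Mrpl42 (356 in the knockout and 684 in the control), Mrpl35 (198 and 363) and Mrpl13 (352 and 635). Their log2 ratios were -0.94, -0.87 and -0.85. The other measured Mrpl13 probe sets gave -1.29 and -0.72. Mrpl51 had 456 in the knockout and 819 in the control (-0.85), but its dimmer probe set, with 30.1 and 32.0, gave -0.09. Mrpl41 had 410 in the knockout and 698 in the control (-0.77), and its second probe set gave -0.37. The brightest members included Mrpl39, with 1010 in the knockout and 1035 in the control, Mrpl57, with 895 and 866, and Mrpl52, with 720.2 and 1011. Mrpl39 gave -0.03 in that probe set and -0.36 in the next. Bright members were thus found both near 0 and among the lower ones. Across the 74 genes mean signal and ratio had a Spearman rho of 0.15, as a description across genes of the same 2 arrays.

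Small subunit genes were closer together. Apart from Mrps22 and Mrps25, their ratios lay between -0.87 for Mrps11 and 0.03 for Mrps6. Mrps11 had 69.0 in the knockout and 126 in the control. Mrps5 and Mrps24, whose bacterial counterparts line the channel where the message enters, had 49.6 and 87.4 and 273 and 455 in knockout and control, with log2 ratios of -0.82 and -0.74. Mrps12, the counterpart of the decoding protein S12, had 305 in the knockout and 395 in the control (-0.37), and Mrps35 had 162 and 221 (-0.45). Mrps14 had 758 in the knockout and 1027 in the control (-0.44). Mrps33 and Mrps6 were near equal on the arrays, with 506 and 509, and 685 and 672.

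The 3 paralogs of bacterial S18 differed. Mrps18b had 102 in the knockout and 177 in the control (log2 ratio -0.79), Mrps18c had 327 and 501 (-0.61), and Mrps18a had 440.3 and 489 (-0.15). Mrps18a and Mrps18b are counted above as found only in mitochondria, since Mrps18c holds the place of the bacterial protein.

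The members not yet named lay inside these limits. In the large subunit Mrpl37 (69.4 in the knockout and 110.3 in the control) and Mrpl21 (194 and 299) had log2 ratios of -0.67 and -0.62. Mrpl36 had a ratio of -0.44, Mrpl34 of -0.28 and Mrpl43 of -0.14. Mrpl32, whose cleavage by a membrane protease is a step of ribosome assembly, had 567 in the knockout and 714 in the control (-0.33), and Mrpl55 had 116 on both arrays. In the small subunit Mrps26 had 194 in the knockout and 317 in the control (-0.71), and Mrps7, Mrps16, Mrps17, Mrps21 and Mrps31 lay between -0.53 and -0.32. Mrps30, of the large subunit by structure, had 91.5 in the knockout and 146 in the control (-0.68).

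**Figure D3:**
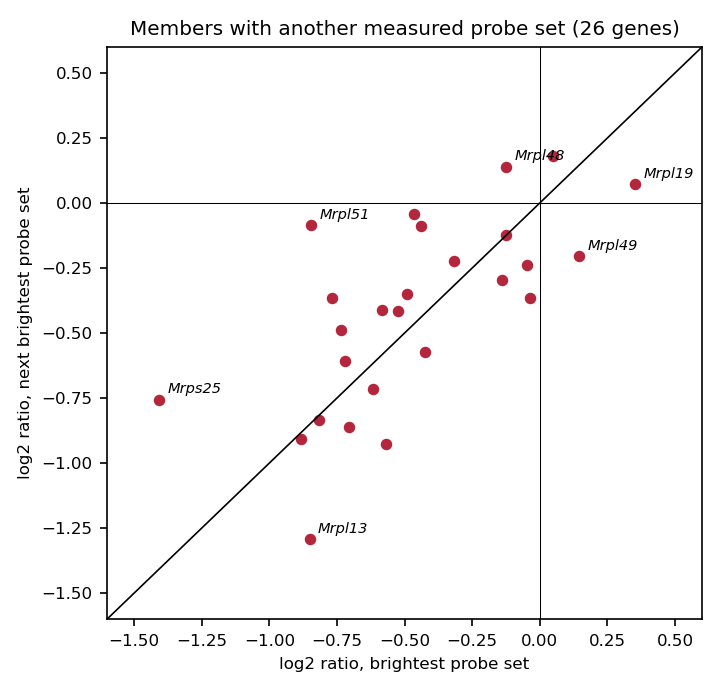
Log2 ratio (Stat3 knockout over control) of the brightest probe set of a gene (horizontal axis) against that of its next brightest measured probe set (vertical axis), 1 point per gene for the 26 members with another measured probe set; the line marks equal values. Direction is shared in 24 of 26 (2642 of 3237 over all genes), and Mrpl51, Mrps25 and Mrpl13 lie far from the line.

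Probe sets that did not choose the values above mostly gave the same direction. The 26 genes with a further measured probe set had 36 of them, 32 with a ratio below 0, and their median was -0.36. In 33 of the 36 the direction was that of the brightest probe set. Between the brightest and next brightest probe set it was shared in 24 of 26 members, against 2642 of 3237 genes over the arrays. Mrpl15 had 4 further measured probe sets, with ratios from -0.93 to -0.51 beside the -0.57 of the brightest. Those of Mrpl1, Mrpl9, Mrpl11, Mrpl28, Mrpl38, Mrpl44, Mrpl50, Mrpl52, Mrps2, Mrps5, Mrps9, Mrps14, Mrps15, Mrps23 and Mrps24 were below 0 like the brightest, except for 1 Mrpl52 probe set near the floor, at 14.8 in the knockout and 12.5 in the control. For Mrpl49 the ratio was 0.15 in the brightest and -0.20 in the next, so its direction was not settled. Mrpl57 gave 0.05 and 0.18. The remaining 17 probe sets of members were under the floor on both arrays. Probe sets shared with other genes, not counted as members, gave -0.38 for Mrpl30 with Gm6238, -0.13 for Mrpl53 with Ccdc142 and -0.08 for Mrps34 with Nme3. The probe set of Mrps34 alone had 432 in the knockout and 599.6 in the control (-0.47).

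The members lie on 17 chromosomes, with at most 11 on 1 of them (chromosome 11), and the median ratio was below 0 on each of the 17, from -0.88 on chromosome 9 (3 genes) to -0.03 on chromosome 16 (3 genes). Lower ratios were thus found across chromosomes.

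Proteins of the cytosolic ribosome, which translates nuclear messages, had a median log2 ratio of -0.03 in 39 genes, with 25 below 0, 1 lower by 2-fold or more, 0 higher by 2-fold or more and 3 lower by 1.5-fold or more. The shares lower were 2.56% at 2-fold, against 9.92% of all genes, and 7.69% at 1.5-fold, against 18.6%. The median of the mitochondrial set was 0.45 lower on the log2 scale (difference -0.45). The signals of the cytosolic set were much higher. In 31 of its 39 genes the mean signal was above that of every mitochondrial member, between 2678 and 6784 in the knockout and between 3129 and 6863 in the control, and their ratios ran from -0.38 to 0.15. The 75 other genes in that bright range had a median of 0.12. The remaining 8 cytosolic genes, in the members' signal range, had a median of -0.06 and scattered from -1.91 to 0.91. How much of the difference between the ribosomes comes with the brightness of the probe sets was not tested. The extremes of the cytosolic set were Rpl12 (38.0 in the knockout and 142 in the control), Rpl14 (73.4 and 118) and Rps25 (55.6 and 88.7) at the low end, and Rps6 (405 and 216), Rpl39 (49.6 and 29.7) and Rps27 (67.3 and 51.2) at the high end. All of these are among the 8 dimmer genes. Probe sets annotated to several genes were left out, and whether the dim ones kept read the main message of their gene was not tested.

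**Figure D4:**
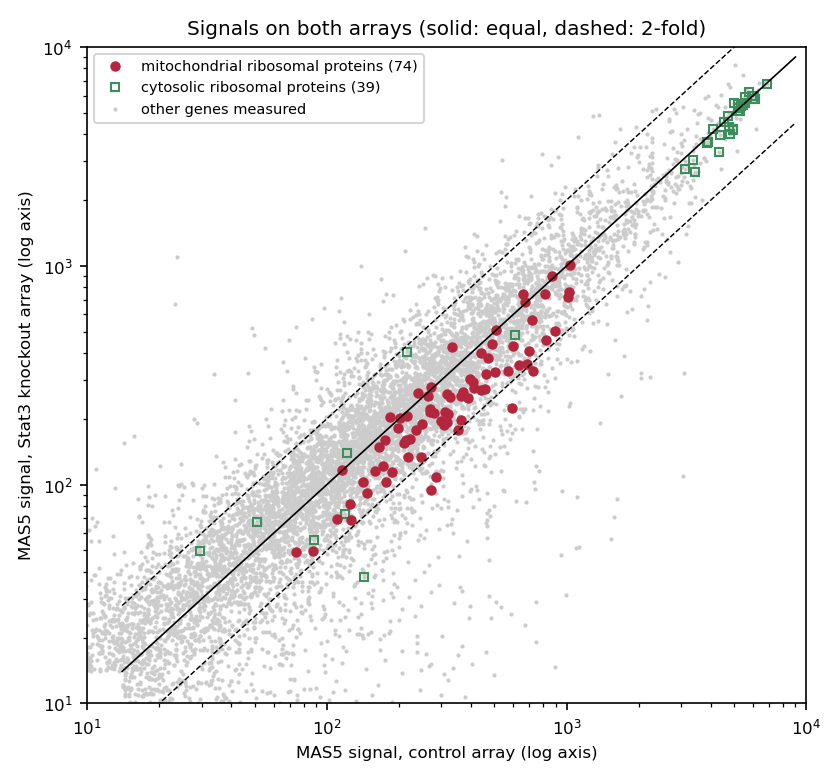
MAS5 signal on the Stat3 knockout array (vertical log axis) against the control array (horizontal log axis), 1 point per gene. The mitochondrial ribosomal proteins lie mostly between the line of equal signal and the 2-fold line below it, and 31 of 39 cytosolic ribosomal proteins sit at the bright end, close to the line of equal signal. Genes dimmer than the start of an axis are not drawn.

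Of 4 measured subunits of the mitochondrial ribosome with other names, which the symbol rule does not take in, 3 were below 0 and 1 above. Their median log2 ratio was -0.62. Ptcd3, at the entry of the message, had 113 in the knockout and 210 in the control (log2 ratio -0.90), Chchd1 had 381 and 695 (-0.87), and Gadd45gip1 had 150.5 and 195 (-0.37). Dap3, the GTP-binding protein of the small subunit, was higher, with 823 in the knockout and 573 in the control (0.52), more than any Mrpl or Mrps gene. Each was read by a single measured probe set.

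The factors that work with the ribosome had a median closer to 0 than its proteins. Of 8 measured translation factors, 1 (12.5%) was lower by 2-fold or more, against 9.92% of all genes, and the median was -0.07. Tufm, the elongation factor that brings transfer RNA, had 38.1 in the knockout and 77.5 in the control (2.03-fold lower), and Gfm1, the translocation factor, had 71.5 and 139 (log2 ratio -0.96). The initiation factor gene Mtif2 had 242 in the knockout and 234 in the control, the deformylase gene Pdf had 189.5 and 201, and the recycling factor gene Mrrf had 152 and 133. Gfm2, a relative of Gfm1 that acts in ribosome recycling, had 51.6 in the knockout and 45.7 in the control (0.17). Mtif2, Pdf, Mrrf and Gfm2 differed by less than the probe set SD. Of 13 measured genes for mitochondrial transfer RNA charging, 0 passed 2-fold, 9 were below 0 and the median was -0.28, with Qrsl1, of the glutamine amidotransferase, at 126 in the knockout and 243.5 in the control, and Gars and Kars, which also serve the cytosol, at 1257 and 1101 and at 333 and 459.

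Genes for assembly of the ribosome and its RNA went in both directions. Of 23 measured, 2 (8.70%) were lower by 2-fold or more and 1 higher by 2-fold or more, with a median of -0.08. Over all genes the shares were 9.92% lower and 7.37% higher, so the share of lower assembly genes was near that of all genes. C1qbp, a matrix protein that binds messages and ribosomes, had 728 in the knockout and 2036 in the control (2.80-fold lower), and a second probe set gave a log2 ratio of -1.70. Mrm3, a methyltransferase for the large ribosomal RNA, had 24.5 in the knockout and 49.9 in the control (2.04-fold lower). Tfb1m, the methyltransferase of the small ribosomal RNA, had 344 in the knockout and 145 in the control (2.38-fold higher), and its second probe set gave 0.91. The RNA-binding protein gene Slirp had 492 and 625, Mterf3 404 and 327, and the helicase gene Dhx30 216 and 229. Of the assembly genes 13 were below 0 and 10 above.

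Genes of mitochondrial DNA and RNA had a median of -0.18 in 16. Of these, 1 (6.25%) was lower by 2-fold or more, against 9.92% of all genes. Higher by 2-fold or more was 1, against 7.37% of all genes. Top1mt, the mitochondrial topoisomerase, had 17.2 in the knockout and 41.6 in the control (2.42-fold lower), and Tk2, the thymidine kinase of mitochondria, had 248 and 93.9 (2.65-fold higher). Tfam, which packs and transcribes mitochondrial DNA, had 209 in the knockout and 233 in the control (log2 ratio -0.15). Ssbp1 had 1090 and 1264, and Hsd17b10 421 and 441. Tfam, Ssbp1 and Hsd17b10 were within the probe set SD.

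Medians near that of the ribosomal proteins were found for import and folding and for general mitochondrial carriers and enzymes. Of 26 measured import and folding genes, 22 were below 0, 6 were lower by 2-fold or more and 13 lower by 1.5-fold or more, with a median of -0.56. Timm8a1, an intermembrane space chaperone, had 79.2 in the knockout and 407 in the control (5.14-fold lower), and a second probe set gave a log2 ratio of -2.43. Timm50 (86.4 in the knockout and 228 in the control) and Timm10 (116 and 298), both of the inner membrane import route, were 2.64-fold and 2.57-fold lower. The matrix chaperone genes Hspa9 (303 and 667) and Hspd1 (808 and 1748) were 2.20-fold and 2.16-fold lower, and Tomm40, the outer membrane pore, 2.08-fold lower (119 and 249). Hspe1 had 1218 in the knockout and 2093 in the control and Timm23 had 583 and 1019, while the 5 measured probe sets of Tomm20 disagreed in direction, from -0.53 to 0.31.

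Of 11 measured carrier, porin and matrix enzyme genes, 10 were below 0, and the median was -0.48. Lower by 2-fold or more was 1 (9.09%), against 9.92% of all genes. Idh3a, of the citric acid cycle, had 221 in the knockout and 669 in the control (3.02-fold lower), with -0.61 and -0.69 on the log2 scale in its dimmer probe sets. The carriers Slc25a5 and Slc25a3 had 1944 and 3311, and 1945 and 2794, in knockout and control. Mdh2, malate dehydrogenase, had 2146 and 2301. Cs, the gene of citrate synthase, named here after its values were seen, had 1963 in the knockout and 1643 in the control (0.26). These are RNA signals, and mitochondrial content was not measured. Oxidative phosphorylation subunits, the nuclear-encoded partners of the proteins this ribosome makes, had a median of -0.23 in 75 genes, with 59 below 0, 2 lower by 2-fold or more and 1 higher by 2-fold or more. The share lower by 2-fold or more was 2.67%, against 9.92% of all genes. The genes past 2-fold were Ndufa5 (198 in the knockout and 448 in the control), Ndufb1 (16.0 and 33.0) and, upward, Cox8c (33.8 and 16.8), and the brightest others were Uqcrb, Cox6a1 and Ndufc2, with ratios of -0.18, -0.01 and 0.35.

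Among 9 regulators of nuclear genes for mitochondria, 3 (33.3%) were lower by 2-fold or more, against 9.92% of all genes, and the rest within 2-fold. Myc, which drives growth genes, had 20.8 in the knockout and 136 in the control (6.55-fold lower). The coactivator gene Pprc1, which responds to growth signals, had 27.2 in the knockout and 155 in the control (5.68-fold lower), and its relative Ppargc1b had 14.4 and 41.8 (2.90-fold lower). Gabpa had 203 in the knockout and 219 in the control, Yy1 had 785 and 711, and Esrra had 145 and 195. The 3 measured probe sets of Nrf1 disagreed, with log2 ratios of -0.11, -0.65 and 0.36. Genes of cell division differed far more than the ribosomal proteins, with all 12 measured genes lower by 2-fold or more and a median of -3.24; Mki67, a marker of cycling cells, had 19.1 in the knockout and 742 in the control. The part of cell division and of these regulators in the result was not tested.

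**Figure D5:**
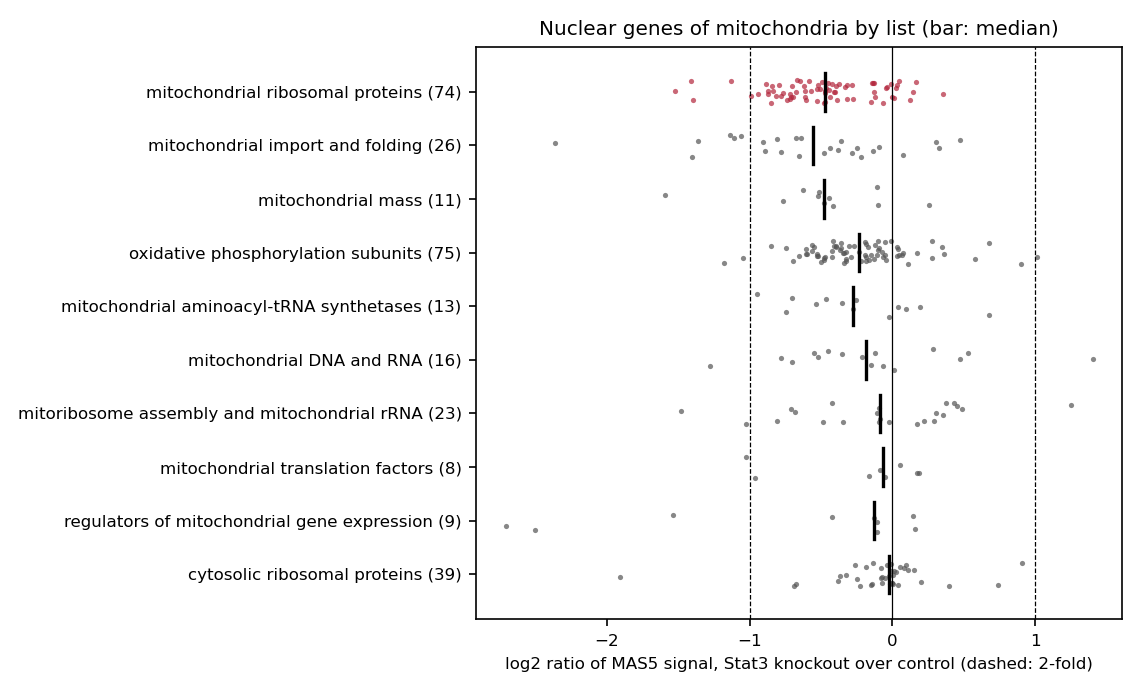
Log2 ratio (Stat3 knockout over control) of each measured gene, as 1 point, in the mitochondrial ribosomal proteins and 9 other lists, with a bar at each median. The medians of the ribosomal proteins (-0.47), of import and folding (-0.56) and of carriers and enzymes (labelled mitochondrial mass, -0.48) lie left of the others.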

How the data were processed

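Uterine epithelial RNA of 1 Stat3 knockout and 1 control pool was read on 1 array each. In the labels, the extraction text speaks of human stromal cells, while all other fields give mouse epithelium. The authors deposited intensity values, on a linear scale, for 22690 probe sets; MAS5 and Affymetrix Expression Console 1.1 are listed in the submitters' processing notes. Both arrays had a trimmed mean (leaving out 2% from either end) of 150.1, as after global scaling. No hybridisation batch or detection call was used.

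Of 22626 probe sets that are not controls, 20380 had 1 gene in the platform annotation, which can be old, and only these were named. Signals under 14.0 were set to that floor, and no pseudocount was used. Of 12393 genes, 8304 were measured. The number of arrays limits the precision. Ribosomal protein kinases, like genes and pseudogenes were left out of the cytosolic set. Members named in the text were those past 2-fold, the 12 lowest, 6 highest and the 6 brightest, those at named sites and those with a second measured probe set; the other members are named so that all 74 are accounted for. Other lists are named by up to 6 genes past 2-fold and the 3 brightest others; Gfm1, Gfm2, Cs and the markers were named after their values were seen. Members and lists were chosen with earlier results of these data known, and the motifs after the ratios were seen; the NRF1 letters are a shorter form taken in place of a longer, rarer one that had been searched first. Alternatives changed scaling, floor, probe sets and symbols. Python 3.11.15, pandas 2.3.3, scipy 1.17.1 and statsmodels 0.14.6 were used; the steps were tested on simulated data.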

Additional observations from a re-analysis of the deposited data

How the results depend on the processing

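The members' median, and that median minus the cytosolic and all-gene medians, stayed below 0 under the 10 alternatives planned, and so did those recomputed under the 3 chosen after seeing the data. The count at least 2-fold lower was 4 or 5, that at least 1.5-fold lower 20 (of 55 genes, without probe sets shared between transcripts) to 31 (loess), and no member was at least 1.5-fold higher. The count below 0 was 62 (median centring) to 67 (loess) of 74 genes, and 49 of the 55 without shared probe sets. The median of the members ran from -0.51 (loess) to -0.41 (median centring), and that minus all genes from -0.57 (no floor) to -0.48 (without shared probe sets). Median centring moved the median of all genes to 0.11. The median minus that of the cytosolic set moved to -0.27 without shared probe sets, which left 16 cytosolic genes. Of 795 single values, 787 moved by less than the probe set SD, and 10 (in 7 genes) changed sign. Many of the 795 could not move by more. All members were above the floor, so a lower floor or none left their ratios unchanged. Median centring shifted every ratio by the same amount, less than that SD. The count of 787 therefore says little about how firm single values are. The share of all genes at least 2-fold lower, the background of the counts, ran from 5.40% (floor value added to both signals) to 16.5% (loess with no floor). Both of these shares are over all 12393 genes, those under the floor included. They are thus not on the same base as the main share of 9.92%, which is over 8304 genes. No paired analysis was possible because each group has 1 array. Leaving out a replicate was not possible for the same reason. Signals of the members were at least 49.4 in the knockout and 74.1 in the control, above the floor of 14.0, so the floor limited none of their ratios.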

Other observations

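Genes that start back to back with a mitochondrial ribosomal protein gene had a median ratio above that of the members beside them. With RefSeq starts (GRCm38.p6), 14 of 65 members (21.5%) had a measured gene on the other strand starting within 1000 bases upstream, against 9.80% of 6786 measured genes. Mrps11 and Mrpl46 form such a pair with each other, 42 bases apart, and were both lower in the knockout (log2 ratios of -0.87 and -0.40). The 12 neighbours that are not members had a median log2 ratio of -0.08, with 6 below 0, while the 12 members beside them had a median of -0.50. Such neighbours of other genes had a median of -0.01.

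Single pairs differed widely. Ncapd2, a condensin subunit gene beside Mrpl51, had a signal of 22.2 in the knockout and 139 in the control. Tmem63b, beside Mrpl14, had 97.3 in the knockout and 41.9 in the control, while Mrpl14 had a ratio of 0.00 after rounding. Eme1, a subunit of a DNA repair nuclease, beside Mrpl27, was under the floor in the knockout and had 43.8 in the control, and Mrpl27 had a ratio of 0.17. Tcp1, a subunit of the cytosolic chaperonin, beside Mrpl18, had 1006 in the knockout and 1653 in the control (-0.72, against -0.78 for Mrpl18). Fau, which encodes a cytosolic ribosomal protein, beside Mrpl49, had 4505 in the knockout and 4286 in the control. Ndufb5, Sars2 and Psma2 were lower (-0.42, -0.26 and -0.23), as were Mrpl47, Mrps12 and Mrpl32 beside them (-0.72, -0.37 and -0.33). Pnpla7, Hira and Ighmbp2 were higher (0.85, 0.21 and 0.17), beside the lower Mrpl41, Mrpl40 and Mrpl21 (-0.77, -0.65 and -0.62). Klc4 had a ratio of 0.32, beside Mrpl2 at 0.03. These values are of 1 array per group and were looked up after the members' ratios were known.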
